A study of Homo sapiens with 24 samples.

Results

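SKBR3 is an established human breast cancer cell line with an amplified ERBB2 gene, which encodes the receptor tyrosine kinase HER2. Transcripts of SKBR3 cells with HER2 knocked down were set against those of control SKBR3 cells, to learn which genes differ when this receptor is targeted. The samples were chosen by their source labels alone: 6 arrays labelled as HER2 knockdown and 6 labelled as control, 12 of the 24 arrays in the series. The remaining arrays, 6 with PMCA2 (the plasma membrane calcium pump of gene ATP2B2) knocked down and 6 with NHERF1 (a PDZ scaffold protein), serve below only to test where the HER2 knockdown differs from other knockdowns made in the same way.

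All groups were described as cultures of the same line in DMEM with serum, and the labels give 48 h with lentiviral short hairpin particles for control and knockdown alike. The labels name neither the hairpin of the control nor the number of hairpins, clones or selected pools behind the knockdown. Each group had 3 arrays on each of 2 chips, each at positions of its own, so chip position and group cannot be told apart. No separate cultures are named, and the p-values therefore measure the spread between arrays, which may be technical. Across genes, HER2 knockdown arrays correlated with each other at r = 0.994 to 0.997, with the other knockdowns at 0.97 to 0.979 and with control at 0.916 to 0.92. Control arrays correlated with the other knockdowns at 0.914 to 0.919. The control arrays thus stood apart from the arrays of all 3 knockdowns, and what sets them apart besides the hairpin, in culture or in cell stock, was not tested.

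HER2 has no ligand of its own. It pairs with the related receptors EGFR and ERBB3 and passes signals through adaptor proteins to the RAS and ERK kinases, which switch on early response genes and their own feedback inhibitors, and to PI3K and AKT, which keep FOXO transcription factors out of the nucleus. In breast cancers with ERBB2 amplification this signalling feeds cyclin D, lipid synthesis and glucose use, and the cells usually keep features of the luminal, milk-secreting layer of the breast.

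Values are log2 probe intensities from a single probe per gene and cover 12445 genes. A probe signal of about 4.65 in log2 is the lowest that counts as measured. Where any array of a group lies at this floor, the fold is a bound and is written as at least N-fold. Where 3 values stand in a row, they are the lowest, the median and the highest of the 6 arrays of a group. Genes are called at a limma adjusted p under 0.05 (Benjamini-Hochberg over every gene tested). In RNA from a whole culture, fewer cells that express a gene and less of its RNA per cell cannot be told apart.

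The HER2 knockdown differed from control in most of the transcriptome. Of 12445 genes, 8366 were called (67.2%), 4404 of them higher (35.4%) and 3962 lower (31.8%). At least 2-fold differences were fewer, 774 higher (6.22%) and 847 lower (6.81%). The 6 knockdown arrays lay wholly above or below the control arrays for 6125 genes (49.2%). The median difference in either direction was 0.29 in log2 beside a median standard error (SE) of 0.069, so many called genes moved little, and list counts below are to be read against these shares. Probes of 231 genes were at the floor on each control array and above it on each knockdown array, and those of 247 genes the reverse. Fitted within a chip, 6971 genes were called on the first and 7397 on the second, and 203 of 203 called genes named here had the same sign on both. These genes were called in the fit over both chips, so their agreement was largely built in by the choice. The plot of knockdown against control means shows the spread, with the body of genes near the diagonal and tails on both sides.

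**Figure D1:**
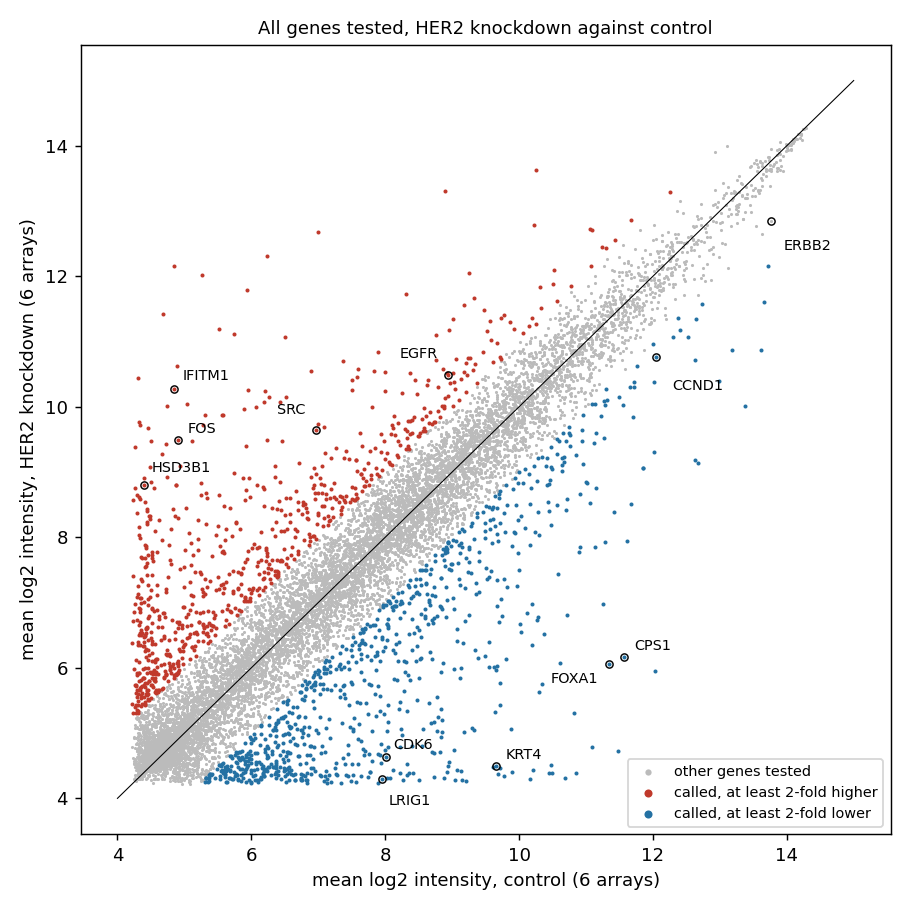
Mean log2 intensity of each of the 12445 genes in control (x axis) and in the HER2 knockdown (y axis), 6 arrays each. Coloured points are genes called and at least 2-fold apart, 774 higher and 847 lower, and the genes labelled are named in the text.

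The targeted gene came down by less than 2-fold. ERBB2 read 13.72, 13.77 and 13.80 in control and 12.81, 12.86 and 12.89 in the knockdown, with no overlap between the groups. That is 53.3% of control (log2 -0.91, SE 0.04, limma adjusted p = 1.60e-16). A dimmer ERBB2 probe stood at 67.5% of control. Another, at 109.3% of control, lay near the floor, above it on 2 of 6 knockdown arrays and on no control array. ERBB2 was as low or lower in the other knockdowns (12.78 ± 0.06 and 12.09 ± 0.10 with PMCA2 and NHERF1 targeted, against 12.85 ± 0.03 here, mean ± SD, n = 6), so its level does not tell the HER2 knockdown from them. Of 17 measured genes around ERBB2 on 17q12, which are often co-amplified with it, 5 rose and 9 fell. Next to ERBB2, the mediator subunit gene MED1, the kinase gene CDK12, the cholesterol carrier gene STARD3 and PGAP3 fell by 0.31, 0.41, 0.34 and 0.26 in log2, while MIEN1 rose by 0.27. Falls of at least 2-fold were seen in 5 of the 17. Among them were the phosphatase regulator gene PPP1R1B (3.52-fold), the adaptor gene GRB7 (2.30-fold) and ORMDL3 of sphingolipid control (2.18-fold). The thyroid hormone receptor gene THRA, also among them, fell at least 2.44-fold.

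Of the partner receptors, EGFR rose. EGFR read 8.83, 8.95 and 9.02 in control and 10.43, 10.49 and 10.57 in the knockdown, a rise of 2.93-fold (log2 1.55, SE 0.04, limma adjusted p = 1.21e-21). The rise was not particular to the HER2 knockdown, since EGFR read 10.54 ± 0.08 and 10.15 ± 0.04 with PMCA2 and NHERF1 targeted (here 10.49 ± 0.05). ERBB3, the partner with little kinase activity of its own that carries PI3K binding sites, read 10.04, 10.12 and 10.14 in control and 10.12, 10.31 and 10.39 in the knockdown. Its rise was small (log2 0.18), and dimmer ERBB3 probes went the other way (-0.82 and -0.45), and the mean of its probes fell by 0.37, so the direction of ERBB3 is uncertain. ERBB4 was not above the floor often enough to be tested. Of the 9 ligand genes on the array, 3 could be tested. HBEGF, whose product binds EGFR and ERBB4, read 5.65, 5.75 and 6.12 in control and 6.65, 6.78 and 6.91 in the knockdown and rose 1.94-fold. EGF read 6.15, 6.24 and 6.37 in control and 4.42, 4.43 and 4.67 in the knockdown and fell at least 3.04-fold. NRG4 lay near the floor in both groups (4.48 ± 0.11 and 4.54 ± 0.18).

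Downstream of the receptors, 6 of 18 adaptor and regulator genes rose and 11 fell, at least 2-fold in 3 and 3 of them. SRC, a kinase that acts with ERBB receptors, read 6.76, 6.94 and 7.15 in control and 9.54, 9.63 and 9.77 in the knockdown. It rose 6.38-fold (log2 2.67, SE 0.06, limma adjusted p = 2.55e-23), while dimmer SRC probes near the floor moved by 0.25 and 0.04. The docking proteins that recruit PI3K and SHP2 rose as well, GAB2 5.66-fold and GAB1 3.12-fold. Negative regulators were split. LRIG1, which promotes breakdown of ERBB receptors, read 7.77, 7.96 and 8.11 in control and 4.26, 4.28 and 4.39 in the knockdown and fell at least 9.86-fold, to the floor. ERRFI1, an inhibitor of EGFR and HER2 kinase activity, rose 1.75-fold, and the ubiquitin ligase gene CBLB rose 1.99-fold. The non-receptor kinase gene PTK6 fell 2.75-fold. SHC1, the adaptor that links the receptors to RAS, rose by 0.53 in log2.

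**Figure D2:**
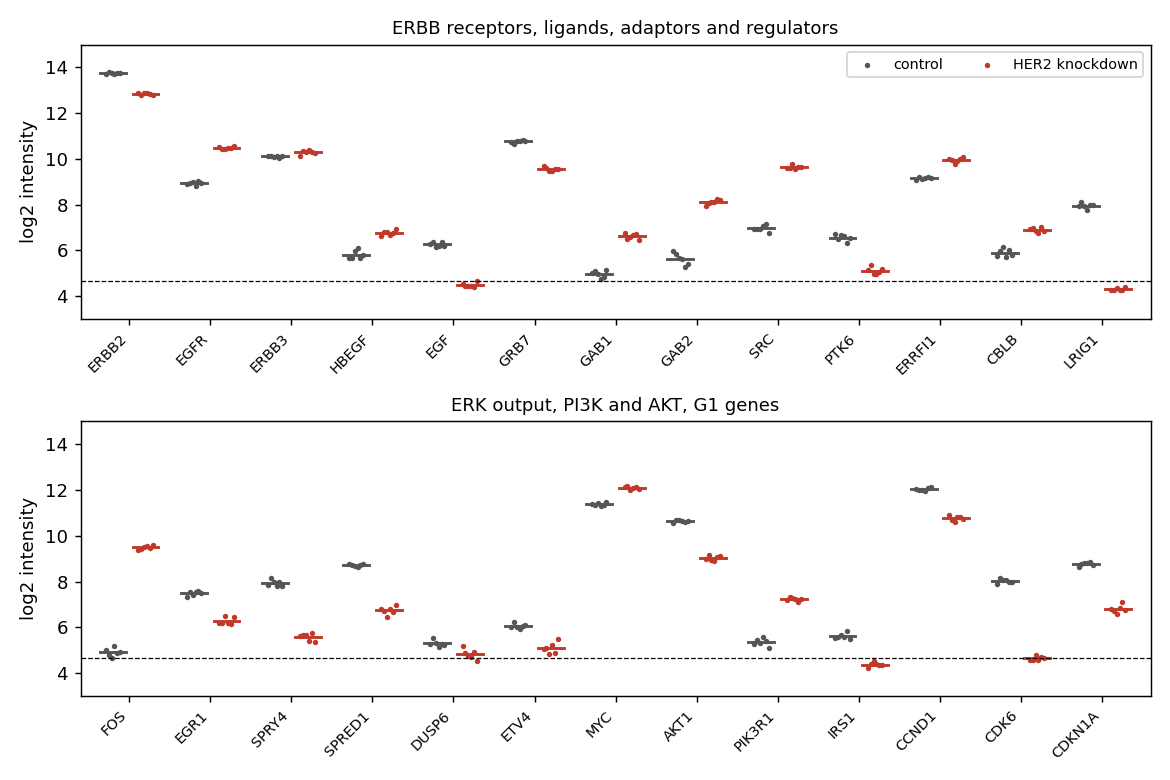
Log2 intensity of ERBB receptor, ligand, adaptor and ERK or AKT pathway genes on each array (points), control and HER2 knockdown side by side, bars at the group means (n = 6). The dashed line is the lowest signal that counts as measured (4.65). EGFR, SRC, GAB2, FOS and PIK3R1 sit higher in the knockdown, and ERBB2, LRIG1, SPRY4, AKT1, CDK6 and CDKN1A lower.

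Genes that ERK signalling is known to switch on fell more often than they rose. Of 19 measured, 11 fell and 4 rose, with a median of -0.41 in log2 beside 0.022 over all genes. Feedback inhibitors of the pathway were among those lower. SPRY4, which blocks RAS activation, read 7.78, 7.90 and 8.15 in control and 5.36, 5.63 and 5.74 in the knockdown. It fell 5.11-fold (log2 -2.35, SE 0.07, limma adjusted p = 1.80e-21). SPRED1, another RAS inhibitor, fell 3.93-fold, and SPRY1 and SPRY2 fell by 0.47 and 0.33 in log2. The MAP kinase phosphatase genes DUSP4 and DUSP5 fell by 0.73 and 0.41. DUSP6, another of them, fell at least 1.37-fold, near the floor and with overlap between the groups (knockdown highest 5.19, control lowest 5.15). The transcription factor genes EGR1 and ETV4 fell 2.32-fold and 1.95-fold, and the early response gene IER3 2.04-fold. Exceptions were large. FOS, the partner of JUN in the AP-1 factor, read 4.66, 4.89 and 5.18 in control and 9.37, 9.50 and 9.62 in the knockdown, a rise of 24.2-fold (log2 4.60, SE 0.07, limma adjusted p = 4.47e-28). EPHA4 (2 of 6 control arrays above the floor), PHLDA1 and MYC also rose, by 1.80, 1.14 and 0.71 in log2. Falls of EGR1, IER3 and ETV4 were shared with the other knockdowns. EGR1 read 6.14 ± 0.11 and 6.48 ± 0.18 with PMCA2 and NHERF1 targeted (here 6.27 ± 0.16). IER3 read 10.94 ± 0.08 and 11.31 ± 0.06 (here 10.97 ± 0.09) and ETV4 5.53 ± 0.09 and 4.99 ± 0.18 (here 5.09 ± 0.23). Of the 19 genes, 8 differed both from control and, with one sign, from the other knockdowns, beside 21.8% of all genes.

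On the PI3K branch, 4 of 17 measured genes rose and 5 fell, so that 52.9% of the list was called, against 67.2% of all genes. AKT1 read 10.55, 10.65 and 10.70 in control and 8.89, 9.01 and 9.16 in the knockdown and fell 3.07-fold (log2 -1.62, SE 0.05, limma adjusted p = 1.35e-20). PIK3R1, the regulatory subunit of PI3K, read 5.10, 5.35 and 5.55 in control and 7.12, 7.23 and 7.34 in the knockdown and rose 3.71-fold, while a PIK3R1 probe near the floor moved by -0.07. PIK3CD, a catalytic subunit, rose 2.06-fold, while the PI3K inhibitor gene PIK3IP1 fell 3.13-fold and IRS1, the docking protein of the insulin receptor, fell at least 1.95-fold. The other 8 genes of this list did not pass the test. FOXO factors and their known targets were evenly split, 6 higher and 6 lower of 13. TXNIP, which restrains glucose uptake, rose 2.09-fold, SESN1 1.64-fold and FOXO4 2.38-fold. FOXO1, BCL6 and SOD2 (mitochondrial superoxide dismutase) fell by 0.82, 0.85 and 0.77 in log2, though BCL6 and SOD2 are listed as targets.

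Of the cell cycle lists, G1 genes were called in both directions, and DNA replication and mitosis genes mostly higher by small amounts. In the G1 list, 8 of 20 rose and 7 fell. CCND1, the D-type cyclin that growth factor signals induce, read 11.97, 12.03 and 12.14 in control and 10.62, 10.77 and 10.89 in the knockdown, a fall of 2.43-fold (log2 -1.28, SE 0.05, limma adjusted p = 7.09e-19). Its partner kinase gene CDK6 read 7.90, 8.01 and 8.13 in control and 4.55, 4.61 and 4.78 in the knockdown and fell at least 10.1-fold, while CDK4 rose 1.78-fold and CDK2 3.02-fold. With PMCA2 and NHERF1 targeted, CCND1 read 10.8 and 11.1 (here 10.8) and CDK6 4.96 ± 0.21 and 4.51 ± 0.15 (here 4.64 ± 0.09), so both falls were shared. Of the 20 G1 genes, 2 differed both from control and, with one sign, from the other knockdowns, beside 21.8% of all genes. Inhibitors of the CDK kinases differed from control too. CDKN1A, which encodes p21, read 8.64, 8.78 and 8.86 in control and 6.57, 6.79 and 7.08 in the knockdown and fell 3.93-fold and CDKN2A rose 2.25-fold. CDKN1B, which encodes p27, differed by -0.16 in log2, a call that was lost when single arrays were left out. Genes of DNA replication rose in 23 and fell in 5 of 37 cases, with a median of 0.30. MCM10, MCM2 and GINS4, of the replicative helicase, rose 2.71-fold, 2.14-fold and 2.01-fold, while the thymidine kinase gene TK1 fell 2.39-fold. Of 38 mitosis genes, 28 rose and 2 fell, with a median of 0.35 and 1 at least 2-fold higher. HMMR, a spindle protein, rose 2.29-fold, the kinase genes AURKB and CDK1, which drive division, 1.98-fold and 1.97-fold, and CDC20, an activator of the anaphase-promoting complex, 1.93-fold. Among p53 targets, 8 of 16 rose and 5 fell, TIGAR 3.34-fold and GADD45A 2.62-fold higher and GDF15 4.93-fold lower. Of 22 apoptosis regulators, 10 did not pass. The pro-death BCL2 family genes BID, BIK and BAK1 fell 7.18-fold, at least 3.51-fold and 2.15-fold, and the BH3-only gene PMAIP1 rose 1.82-fold.

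Luminal markers fell in 20 and rose in 4 of 25 tested cases. Of 28 luminal markers on the array, 24 were above the floor on each control array and 15 on each knockdown array, and the number seen on no array rose from 2 to 11. The mean log2 intensity per array of the 25 tested was 9.07 to 9.13 in control and 6.96 to 7.03 in the knockdown. FOXA1, a pioneer factor of luminal cells, read 11.24, 11.34 and 11.47 in control and 5.89, 6.02 and 6.27 in the knockdown and fell 38.8-fold. The ETS factor gene SPDEF (10.10, 10.16 and 10.21 in control and 4.21, 4.30 and 4.42 in the knockdown) fell at least 45.6-fold, TRPS1 fell at least 9.49-fold, and XBP1, a factor of secretory cells, 6.02-fold. Secreted and surface products fell with them, AZGP1 at least 10.8-fold, AGR2 45.6-fold and the mucin gene MUC1 12.4-fold. Yet GATA3, another luminal factor, read 4.34, 4.58 and 4.88 in control and 6.63, 6.76 and 6.83 in the knockdown and rose at least 4.08-fold, and TFAP2A, an AP-2 factor, rose 3.10-fold. Low luminal markers were not peculiar to the HER2 knockdown. With PMCA2 and NHERF1 targeted, FOXA1 read 5.01 ± 0.10 and 6.30 ± 0.08 (here 6.06 ± 0.16), AGR2 5.64 ± 0.11 and 5.23 ± 0.14 (here 5.31 ± 0.15) and MUC1 6.12 ± 0.08 and 6.20 ± 0.11 (here 6.03 ± 0.24), and SPDEF was at the floor in all 3 knockdowns. Of the 25 markers tested, 5 differed both from control and, with one sign, from the other knockdowns. That share is close to the 21.8% over all genes.

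**Figure D3:**
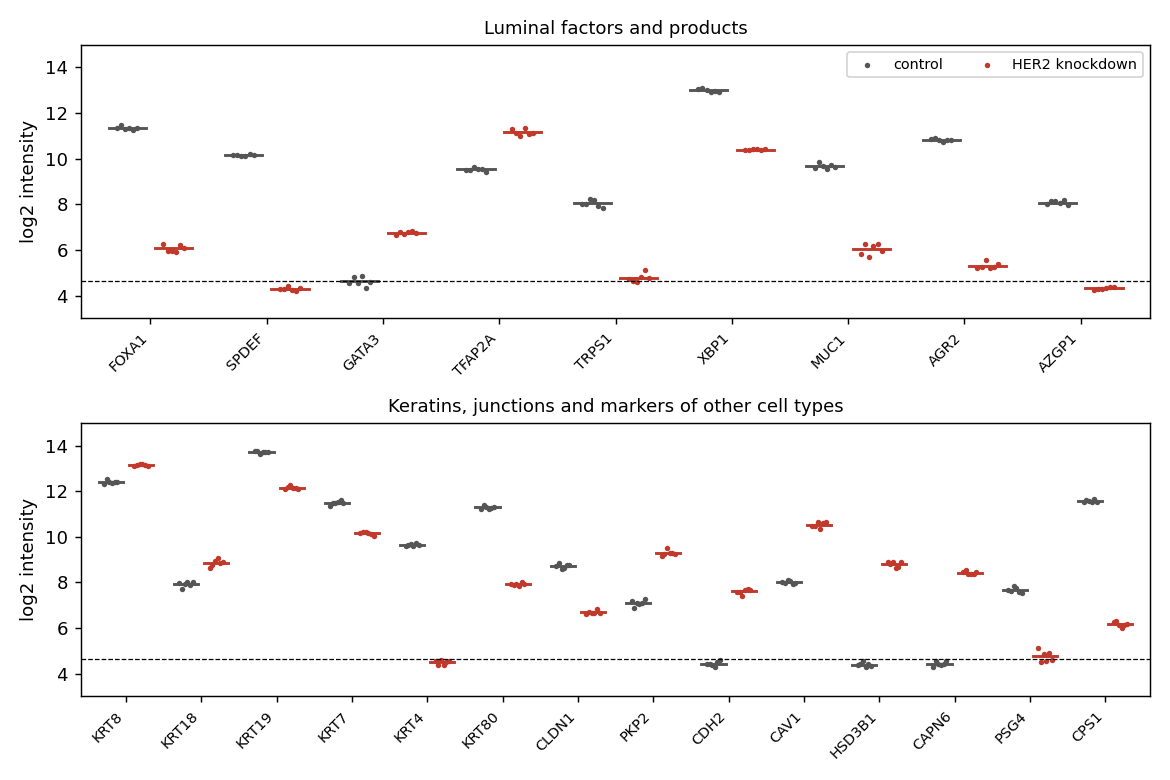
Log2 intensity of luminal factors and products, keratins and junction genes, and markers of other cell types on each array (points), control and HER2 knockdown side by side, bars at the group means (n = 6), with the dashed line at the lowest signal that counts as measured. SPDEF and KRT4 reach the line in the knockdown and FOXA1 and AGR2 sit lower there than in control, while GATA3, KRT8, KRT18, PKP2, CDH2 and HSD3B1 sit higher there.

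Keratins were split. KRT8 and KRT18, the paired keratins of simple epithelium, rose 1.68-fold and 1.91-fold, while KRT19 and KRT7 fell 2.95-fold and 2.52-fold. KRT80 and KRT4 fell further, KRT80 10.3-fold and KRT4 at least 32.0-fold (9.59, 9.65 and 9.74 in control and 4.38, 4.52 and 4.62 in the knockdown). In all, 7 of 11 keratin genes fell and 3 rose. Of the junction genes, 9 of 22 rose and 7 fell, and the median was 0.01. The tight junction gene CLDN1 fell 4.08-fold and the desmosomal plakophilin gene PKP2 (6.90, 7.09 and 7.29 in control and 9.16, 9.27 and 9.52 in the knockdown) rose 4.57-fold.

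Markers of other cell types were seen at the same time, and their part in the results above was not tested. The averages here cover only tested members, which are 9 basal and mesenchymal, 23 placental, 7 fibroblast and 3 neural markers. For the remaining lists they cover 3 melanocyte, 4 endothelial, 5 immune and 5 hepatocyte markers. A member may pass the filter through the group in which it is high. Counts of markers on no array cover every member with a probe. Basal and mesenchymal markers averaged 6.66 to 6.78 per control array and 7.43 to 7.54 per knockdown array, with 9 of 19 on no control array and 6 on no knockdown array. CDH2, which encodes N-cadherin, read 4.31, 4.43 and 4.61 in control and 7.39, 7.63 and 7.73 in the knockdown and rose at least 7.78-fold, the caveolin gene CAV1 rose 5.78-fold, and S100A4 fell 4.14-fold. Placental genes averaged 4.92 to 5.00 and 5.71 to 5.89, with 10 of 30 on no control array and 12 on no knockdown array, LGALS13, PSG1 and ERVFRD-1 among the latter. Of 23 tested, 11 rose and 8 fell, with a median of 0.14 in log2. HSD3B1, a steroid dehydrogenase of the placenta, read 4.28, 4.39 and 4.54 in control and 8.63, 8.85 and 8.91 in the knockdown and rose at least 17.7-fold, CAPN6 rose at least 13.8-fold and the syncytin gene ERVW-1 at least 2.70-fold. The aromatase gene CYP19A1 rose at least 1.49-fold, while PLAC1 and the pregnancy glycoprotein gene PSG4 fell 2.82-fold and at least 7.27-fold. PSG probes may share targets within that family. The risers HSD3B1, CAPN6 and ERVW-1 were higher still in the other knockdowns. With PMCA2 and NHERF1 targeted, HSD3B1 read 11.09 ± 0.07 and 10.08 ± 0.05 (here 8.80 ± 0.12). CAPN6 read 10.39 ± 0.14 and 9.64 ± 0.05 (here 8.43 ± 0.07) and ERVW-1 8.91 ± 0.15 and 7.17 ± 0.05 (here 6.09 ± 0.16). Fibroblast markers averaged 6.10 to 6.17 and 6.78 to 6.91 (COL3A1 at least 5.33-fold higher, COL5A1 4.59-fold lower), neural markers 5.99 to 6.25 and 6.47 to 6.63, and melanocyte markers 4.88 to 5.00 and 5.57 to 5.81. Of the 3 tested markers in each of the neural and melanocyte lists, 1 was called higher and 1 lower. Endothelial markers averaged 5.95 to 6.11 and 5.25 to 5.44, immune markers 6.26 to 6.41 and 5.84 to 6.13, and hepatocyte markers 6.91 to 7.08 and 4.94 to 5.16. The markers seen on no control array and on no knockdown array numbered 8 and 8 of 16 fibroblast, 7 and 3 of 11 neural, 4 and 5 of 7 melanocyte, 4 and 6 of 10 endothelial, 7 and 6 of 13 immune and 6 and 6 of 12 hepatocyte markers. On no knockdown array were, among others, FAP, PDGFRA, SYP, MLANA, SOX10, PECAM1, PTPRC, APOA1 and TTR. The hepatocyte list includes CPS1, the first enzyme of the urea cycle, which read 11.53, 11.55 and 11.66 in control and 6.00, 6.16 and 6.29 in the knockdown and fell 42.3-fold.

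Extracellular and cytoskeletal genes moved strongly at single members. ITGA6, a laminin receptor subunit, rose at least 5.21-fold and the surface sialomucin gene PODXL, which binds NHERF scaffolds, rose 6.71-fold. MSN, which encodes moesin and links actin to the membrane, read 5.18, 5.71 and 5.89 in control and 8.37, 8.47 and 8.65 in the knockdown and rose 7.36-fold. Its relative RDX rose by 0.32 in log2. The caldesmon gene CALD1 rose 3.90-fold. Over the list of laminins, collagens and integrins as many rose as fell (11 and 11 of 26).

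Fatty acid synthesis genes moved in both directions. Of 22, 12 rose and 8 fell. FADS1, the delta-5 desaturase of polyunsaturated fatty acids, read 4.20, 4.27 and 4.40 in control and 8.21, 8.42 and 8.46 in the knockdown, a rise of at least 13.2-fold. ACSL4, which activates such fatty acids, rose at least 6.12-fold and the carboxylase gene ACACB at least 4.26-fold. SREBF1, the master factor of fatty acid synthesis, read 9.44, 9.54 and 9.77 in control and 7.98, 8.12 and 8.31 in the knockdown and fell 2.72-fold. ME1, a source of NADPH, fell 3.17-fold. HMGCS1, of cholesterol synthesis, rose 2.87-fold.

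Glycolysis and hypoxia response genes fell more often than they rose. Glycolysis genes fell in 12 and rose in 7 of 23 cases, and hypoxia response genes in 11 and 5 of 18. PFKFB3, which makes the activator of phosphofructokinase, read 9.29, 9.34 and 9.39 in control and 6.23, 6.26 and 6.36 in the knockdown and fell 8.39-fold. The lactate dehydrogenase gene LDHB fell 4.56-fold and the transporter gene SLC2A10 at least 21.6-fold. CA12, a carbonic anhydrase, fell at least 14.5-fold, NDRG1 5.23-fold and the collagen hydroxylase gene P4HA2 3.65-fold. HIF1A itself read 7.45, 7.65 and 7.81 in control and 5.69, 5.93 and 6.17 in the knockdown and fell 3.28-fold. Detoxifying genes fell in 15 and rose in 6 of 23 cases, with NQO1 12.7-fold and the exporter gene ABCC3 at least 19.2-fold lower.

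The factor ATF4 drives the amino acid response. Of 22 measured genes it is known to act on, 10 rose and 8 fell, 7 and 2 of them at least 2-fold. ASNS, asparagine synthetase, which was chosen here for its promoter after its values were seen, read 9.84, 9.94 and 10.02 in control and 11.03, 11.18 and 11.33 in the knockdown, a rise of 2.39-fold (log2 1.26, SE 0.05, limma adjusted p = 7.09e-19). CBS and CTH, which turn homocysteine into cysteine, rose 4.06-fold and 3.29-fold. VLDLR, a lipoprotein receptor, rose at least 8.29-fold and the secreted STC2 at least 8.58-fold. The glutamine transporter gene SLC1A5 read 9.59, 9.71 and 9.76 in control and 6.63, 6.71 and 6.78 in the knockdown and fell 7.94-fold, and DDIT4, an inhibitor of mTORC1, fell 4.14-fold. ATF4 acts through a site of the letters TGATGNAA. The promoter of ASNS is shown because it holds this site, on the strand of the gene in RefSeq GRCh38.p14, 120 bases that end at the base before its annotated start (chr7:97872409-97872528, minus strand), with the site in capitals:

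ASNS: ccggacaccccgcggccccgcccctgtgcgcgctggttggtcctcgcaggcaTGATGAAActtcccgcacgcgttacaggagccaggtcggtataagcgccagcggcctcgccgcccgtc

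The match starts 68 bases before the start site. Searched on both strands of the 250 bases upstream, these letters occurred in 2 of 20 list members with a promoter in the table and in 3.19% of all 27305 promoters. A match is a description of the sequence and not of binding.

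The metallothioneins, small metal-binding proteins encoded side by side on 16q13, went opposite ways. MT1G read 5.10, 5.21 and 5.33 in control and 7.62, 7.81 and 7.97 in the knockdown, a rise of 6.05-fold (log2 2.60, SE 0.08, limma adjusted p = 8.85e-21). MT1H rose at least 2.72-fold from the floor. MT2A read 10.36, 10.45 and 10.59 in control and 8.71, 8.88 and 8.99 in the knockdown and fell 3.01-fold (log2 -1.59, SE 0.06, limma adjusted p = 6.18e-19), and MT1X fell by 0.59 in log2. MT1E and MT1F rose by 0.70 and 0.47. The MT1 genes are near-identical, and a probe of one may read another, so their single values are uncertain. Metallothionein promoters carry repeated metal response elements, bound by the factor MTF1. The upstream stretches of a riser and of both genes that fell are set side by side from RefSeq GRCh38.p14, 180 bases each, plus strand, ending at the base before the annotated start (MT1H at chr16:56669634-56669813, MT1X at chr16:56682290-56682469, MT2A at chr16:56608404-56608583). Capitals mark the element core, searched as TGCACNC and TGCGCNC on both strands:

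MT1H: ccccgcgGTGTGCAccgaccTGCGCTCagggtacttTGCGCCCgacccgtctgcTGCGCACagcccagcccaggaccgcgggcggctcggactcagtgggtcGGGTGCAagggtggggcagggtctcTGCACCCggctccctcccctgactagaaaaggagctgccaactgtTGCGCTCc

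MT1X: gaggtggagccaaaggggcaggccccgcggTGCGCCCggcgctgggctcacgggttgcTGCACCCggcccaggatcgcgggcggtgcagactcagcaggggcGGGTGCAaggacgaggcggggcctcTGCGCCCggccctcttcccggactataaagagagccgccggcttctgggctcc

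MT2A: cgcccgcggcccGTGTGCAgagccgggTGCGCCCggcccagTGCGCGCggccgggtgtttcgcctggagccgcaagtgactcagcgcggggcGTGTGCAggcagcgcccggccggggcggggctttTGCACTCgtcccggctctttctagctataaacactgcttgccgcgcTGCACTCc

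MT1H holds 7 matches in this stretch, MT2A 6 and MT1X 4, and none of them overlap. The gene that rose and the genes that fell thus share these letters. One or more matches were found in the 250 bases upstream of 24.7% of all 27305 promoters, so a single match is common. Of 10 metallothionein genes listed, 4 were found in the promoter table and 4 held a match.

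Chaperone genes were mixed. BAG3, a co-chaperone of selective autophagy, read 9.98, 10.00 and 10.08 in control and 6.39, 6.73 and 6.84 in the knockdown and fell 10.2-fold, while the small heat shock protein genes CRYAB (8.67, 8.80 and 8.80 in control and 10.61, 10.72 and 10.84 in the knockdown) and HSPB8 rose 3.88-fold and 3.18-fold. HSPB8 is the partner of BAG3. Of 23 in the list, 10 rose and 7 fell. Genes of the unfolded protein response fell in 18 and rose in 3 of 25 cases, mostly by little (median -0.24), with WFS1 3.55-fold lower and DDIT3, which encodes CHOP, 2.01-fold higher. In the lysosome and autophagy list GABARAPL1 and WIPI1 fell 6.45-fold and 5.55-fold.

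Interferon-stimulated genes rose in 16 and fell in 8 of 30 cases. The membrane proteins IFITM1, IFITM2 and IFITM3, which hinder virus entry, rose at least 42.0-fold, 10.3-fold and 21.4-fold. IFITM1 read 4.50, 4.84 and 5.26 in control and 10.08, 10.27 and 10.37 in the knockdown. Probes of these near-identical genes may read each other. HERC5, a ligase of ISG15, rose at least 4.98-fold, while the nuclease gene ISG20 (10.12, 10.19 and 10.27 in control and 6.20, 6.37 and 6.54 in the knockdown) and USP18, a brake on interferon signalling, fell 14.3-fold and 4.80-fold. In the MHC class I list, 4 of 13 rose, 3 fell and 6 did not pass, so 53.8% were called, below the share over all genes. B2M, TAP1, TAP2 and PSMB9 rose 2.06-fold, 2.24-fold, 2.71-fold and 2.72-fold. Both TAP genes encode the peptide transporter. The immunoproteasome gene PSMB8 fell 1.48-fold. Among cytokines, CCL5 read 6.15, 6.21 and 6.31 in control and 9.27, 9.47 and 9.75 in the knockdown and rose 9.57-fold, IL6 rose at least 1.87-fold, CCL20 fell at least 1.94-fold and the lipocalin gene LCN2 at least 12.6-fold.

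Receptor and ligand genes of other signalling systems were called in both directions. In the TGF-beta and BMP list 8 of 16 fell and 3 rose, a share called (68.8%) near the 67.2% of all genes. The ligand genes TGFB3 (10.25, 10.32 and 10.36 in control and 5.42, 5.58 and 5.90 in the knockdown) and TGFB2 fell 25.6-fold and at least 4.28-fold, the induced matrix gene TGFBI at least 8.58-fold and the inhibitory SMAD gene SMAD6 7.37-fold. TGFBR3, the co-receptor betaglycan, read 4.47, 4.72 and 5.05 in control and 8.66, 8.95 and 9.12 in the knockdown and rose at least 17.7-fold. Retinoid genes fell in 7 and rose in 4 of 12 cases. ALDH1A3, which makes retinoic acid, read 10.54, 10.61 and 10.74 in control and 5.97, 6.05 and 6.31 in the knockdown and fell 23.1-fold, the retinaldehyde reductase gene DHRS3 9.86-fold and the binding protein gene CRABP2 6.96-fold. CYP26B1, which degrades retinoic acid, rose at least 8.47-fold. Among receptor tyrosine kinases outside the ERBB family, EPHB6, EPHA1 and PTK7 fell at least 7.15-fold, 5.25-fold and at least 3.47-fold, and MERTK and its ligand gene GAS6 rose 2.48-fold and at least 1.96-fold. Over that list 3 of 19 rose, 8 fell and 8 did not pass (57.9% called). In the IGF list 4 of 8 rose and 4 fell. IGFBP5, a binding protein of the IGFs, read 11.91, 12.03 and 12.14 in control and 5.86, 5.97 and 6.03 in the knockdown and fell 67.5-fold, and the receptor gene IGF2R fell 1.92-fold, while STC1 and IGFBP2 rose 5.41-fold and 2.41-fold.

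Calcium handling genes were examined because PMCA2 is a target elsewhere in the series. Of 14 measured, 5 rose and 6 fell, and ATP2B2 itself was at the floor in both groups. ATP2B4, another plasma membrane pump, rose 2.93-fold at the probe used and moved by 1.72 and -0.15 in log2 at dimmer probes. ATP2A3, a pump of the endoplasmic reticulum, read 7.76, 7.87 and 8.12 in control and 4.33, 4.70 and 4.93 in the knockdown and fell at least 8.75-fold, the inositol trisphosphate receptor gene ITPR3 fell 8.88-fold, the channel gene TRPV6 7.98-fold and ATP2C2 of the Golgi at least 3.53-fold. NHERF1 read 11.88, 11.94 and 12.00 in control and 11.17, 11.30 and 11.31 in the knockdown and fell to 62.9% of control.

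**Figure D4:**
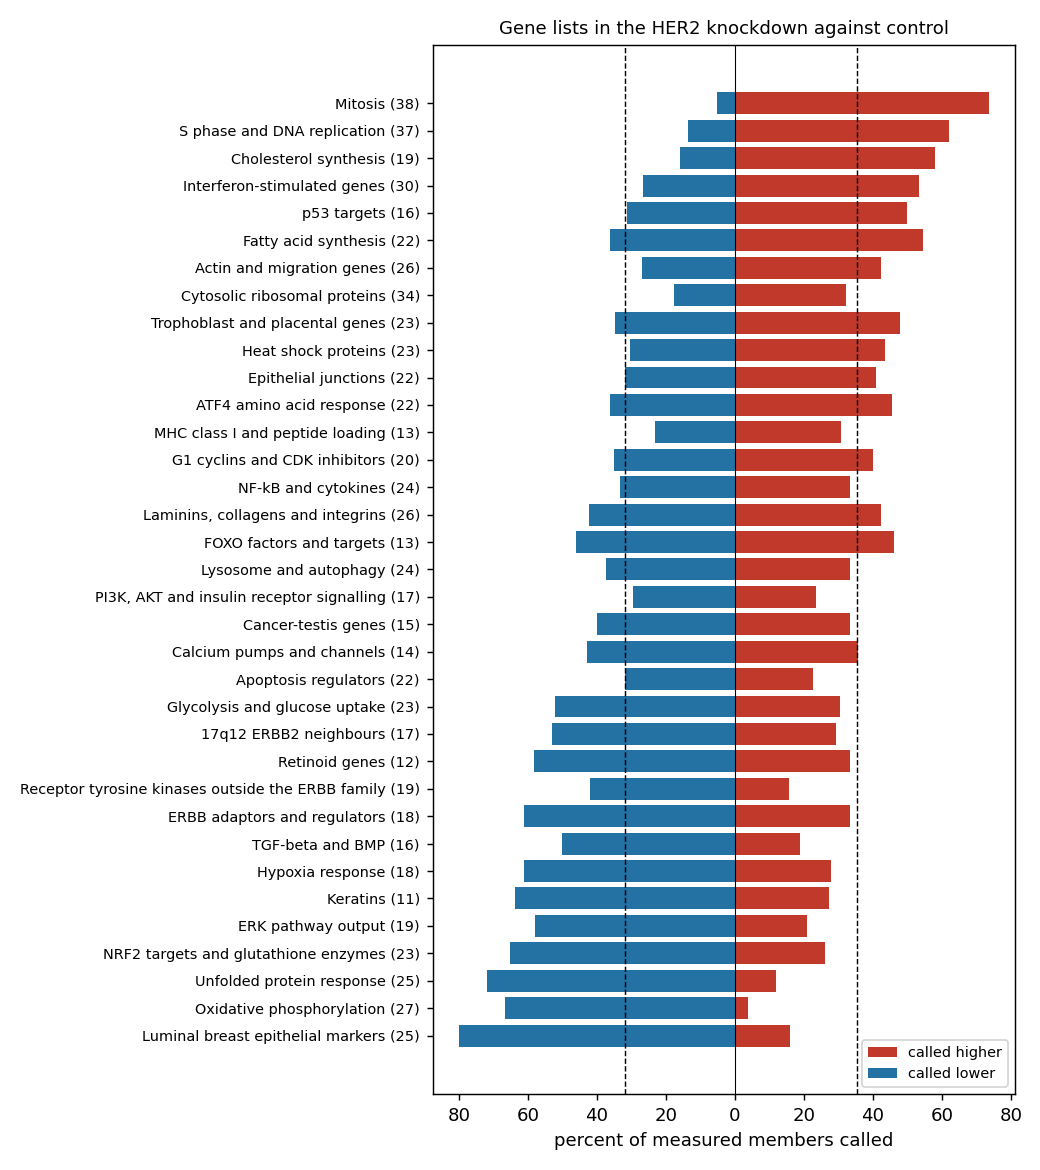
Share of the measured members called in each gene list with at least 10 of them, higher (right) or lower (left) in the HER2 knockdown, with the number measured in brackets. Dashed lines mark the shares over all genes, 35.4% higher and 31.8% lower. Mitosis (28 of 38 higher) and DNA replication reach furthest to the right, and luminal markers (20 of 25 lower) and the unfolded protein response furthest to the left.

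To see where the HER2 knockdown differs from knockdowns of other proteins, each gene was tested directly against the PMCA2 and the NHERF1 knockdown in the same fit. The control arrays do not enter these differences, but the call against control is also required here. Genes called against control, in either direction, and called against the other 2 knockdowns with the same sign in both numbered 2718 (21.8%), 1415 higher in the HER2 knockdown (11.4%) and 1303 lower (10.5%). The count takes no account of the floor. It thus includes genes such as LRIG1, at or near the floor in all 3 knockdowns, whose difference between them was not measured. Among 19 ERK output genes 8 were in this set, as were 8 of 18 adaptors and 12 of 22 ATF4 list members, counted over both directions. Larger shares were those of the FOXO list (8 of 13), retinoid genes (7 of 12) and metallothioneins (5 of 9).

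FOS was higher here than in both (9.49 ± 0.09, against 7.52 ± 0.09 and 7.71 ± 0.09 with PMCA2 and NHERF1 targeted), a difference of 1.98 and 1.78 in log2 (limma adjusted p = 4.46e-19 and 6.63e-18). SPRY4 was lower here (5.57 ± 0.15) than there (7.58 ± 0.08 and 6.46 ± 0.08), and DUSP5 too (7.18 ± 0.05 against 8.86 ± 0.08 and 8.06 ± 0.06). Other feedback genes went the opposite way. DUSP4 was higher here (5.65 ± 0.10) than there (4.61 ± 0.12 and 4.89 ± 0.20). SPRY1 was higher as well, at 8.32 to 8.47 over the arrays against 7.08 to 7.28 and 7.27 to 7.55. AKT1 was lower here, 9.02 ± 0.10 against 9.34 ± 0.09 and 9.49 ± 0.08. ASNS read 11.19 ± 0.10 against 10.36 ± 0.06 and 9.99 ± 0.04.

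The 12 genes furthest above the other knockdowns were RBP7, GTSF1, MT1G, BMP5, NCCRP1, MGP, DOCK11, MATN2, KAT6A, CRIP2, GABRA2 and ACOT2. They were of different kinds with respect to control. DOCK11, CRIP2 and NCCRP1 were lower here than in control, by 1.34, 1.04 and 0.9 in log2, and lower still in the other knockdowns. The rest were higher than control, GTSF1 by little. RBP7, a retinol-binding protein, read 4.46 ± 0.13 in control, 9.68 ± 0.14 here and 4.54 ± 0.18 and 6.84 ± 0.18 in the PMCA2 and NHERF1 knockdowns. GTSF1, a germ line factor of transposon silencing, read 10.02 ± 0.08, 10.32 ± 0.14, 4.42 ± 0.05 and 9.54 ± 0.12 in the same order, so its level here lay near control. MGP, an inhibitor of calcification, read 9.46 ± 0.04, 10.84 ± 0.11, 7.82 ± 0.12 and 8.60 ± 0.11. BMP5, a bone morphogenetic protein, read 4.40 ± 0.07, 8.91 ± 0.09, 6.28 ± 0.10 and 5.80 ± 0.16, and KAT6A, a histone acetyltransferase, 7.50 ± 0.13, 10.41 ± 0.21, 8.21 ± 0.14 and 7.59 ± 0.08.

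The 12 furthest below were SLPI, PI3, PPM1H, PLOD2, COL5A1, DPYSL2, SIGLEC6, OLR1, SAA1, GABBR2, RGL1 and FOXO4. SLPI and PI3 encode secreted protease inhibitors of epithelia and lie in the same gene cluster on chromosome 20. SLPI read 8.72 ± 0.15 in control, 5.17 ± 0.15 here and 9.21 ± 0.05 and 7.88 ± 0.04 in the PMCA2 and NHERF1 knockdowns. PI3 read 5.97 ± 0.15, 4.61 ± 0.13, 8.32 ± 0.09 and 7.43 ± 0.07. PLOD2, a collagen lysyl hydroxylase, read 9.88 ± 0.07, 5.07 ± 0.36, 8.17 ± 0.12 and 8.26 ± 0.09. FOXO4 was above control here (5.96 ± 0.13 and 7.21 ± 0.19) but far below the other knockdowns (10.31 ± 0.05 and 9.65 ± 0.03). PPM1H, a protein phosphatase, read 8.82 ± 0.12, 4.70 ± 0.21, 8.14 ± 0.12 and 7.74 ± 0.09.

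**Figure D5:**
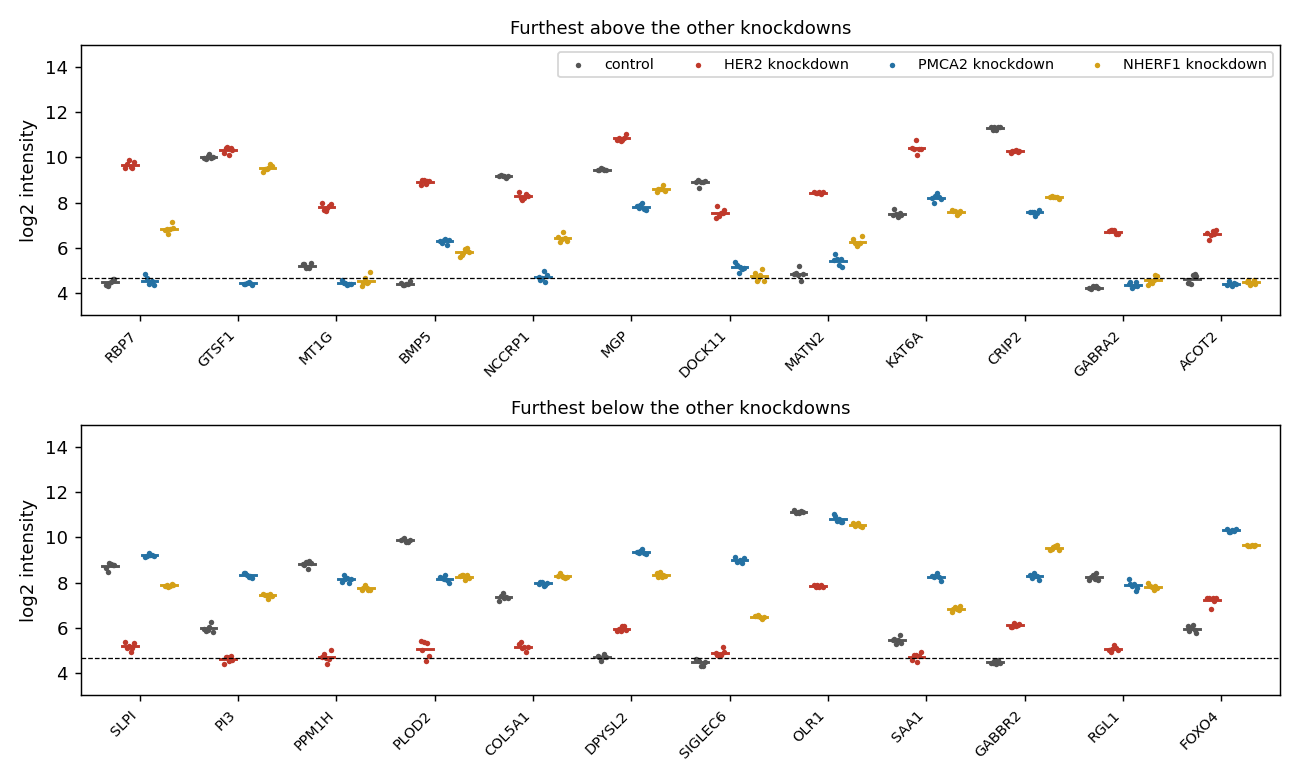
Log2 intensity on each array (points) of the 12 genes furthest above and 12 furthest below the other knockdowns, in control and the HER2, PMCA2 and NHERF1 knockdowns (6 arrays each, bars at means), with the dashed line at the lowest signal that counts as measured. GTSF1 stays near its control level in the HER2 knockdown, KAT6A and RBP7 lie above every other group, and SLPI, PI3 and FOXO4 are higher in the other knockdowns than here.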

How the data were processed

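RNA of 24 SKBR3 samples was read on single-colour Illumina arrays. The deposited values are probe intensities on a linear scale that the authors had normalized. Sorted values differ between arrays by at most 0.406% at any rank and the smallest is 81.6, so they look quantile-normalized with background kept, and the software is not given in the sources used here. A second table with 24 signal columns whose names match no label was not used. The design assumed detection p-values, which the usable table lacks, so 437 olfactory receptor probes served as negative controls. Intensities were corrected with normexp (offset 16), quantile-normalized and put on the log2 scale with limma 3.58.1 in R 4.3.3, starting from the deposited values. Probes with an intensity over 106 (percentile 95 of the negative controls) on at least 6 arrays were kept, 22586 of 47323. Each gene is its probe with the highest mean. 30113 probes have 1 symbol in the platform annotation, 8 several and 17202 none, and 30074 matched the RefSeq table of GRCh38.p14, used for names. All 24 arrays entered the fit (lmFit, eBayes). The number of arrays limits the precision. The script was tested on simulated data. Alternatives were background, scaling, filter, probe averaging, chip and left-out arrays.

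A bound sets the mean of the bright group against, per array, the higher of the lowest measured signal and the signal of the dim probe. Bounds in which some arrays of the dim group were above the floor are those of ACSL4, CCL20, EGF, HERC5, IL6, ITGA6 and LCN2 (1 of 6 arrays), ACACB, CDK6, ERVW-1, GATA3, STC2 and VLDLR (2 of 6 arrays), ATP2C2, BIK and PSG4 (3 of 6 arrays), ATP2A3, PTK7 and TGFBR3 (4 of 6 arrays) and ABCC3, CA12, DUSP6, IFITM1, TGFBI, THRA and TRPS1 (5 of 6 arrays). The text names members of ERBB, ERK, PI3K, FOXO, G1 and 17q12 lists, up to 6 called members of largest change from each of the other lists, the furthest genes against control and against the other knockdowns, and cell type markers, with ASNS as the exception. The members and lists were chosen with earlier results of these data known. Of 98 further probes of 74 named genes, 5 went the other way. Beyond those described with their genes, changes over 1.5 times smaller or larger were read by a further probe with a mean above 5 for AGR2 (-5.51, -2.66), CALD1 (1.96, 0.27), CAV1 (2.53, 1.64), CDKN1B (-0.16, -0.41), CTH (1.72, 0.98), CYP19A1 (0.80, 0.38), GAB1 (1.64, 0.92), HIF1A (-1.71, -0.91), KRT18 (0.94, 0.62), MED1 (-0.31, -0.19), PFKFB3 (-3.07, -1.34), PLOD2 (-4.82, -1.88), PSG4 (-2.91, -0.97 and -1.09), PSMB8 (-0.57, -1.40), PSMB9 (1.44, 0.22), SAA1 (-0.73, 0.02), SLC2A10 (-4.64, -3.02), SPRY4 (-2.35, -1.13), TAP2 (1.44, 0.56) and TRPV6 (-3.00, -1.45), in log2 used and further.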

Additional observations from a re-analysis of the deposited data

Results flagged for a closer look

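In 28 of 425 groups of 6 arrays checked over the genes named, the highest or lowest array was separated from the next by a larger share of the range of the group than the 95% critical value of Dixon's test allows. Chance gives about 1 in 20. The share of the range is given first in each case, followed by log2 intensities. HER2 knockdown array 1 stood apart for BCL6 (0.651, lowest at 6.24 with the next at 6.58) and MCM2 (0.700, lowest at 8.68 with the next at 8.98). HER2 knockdown array 2 stood apart for PFKFB3 (0.674, highest at 6.36 with the next at 6.27). HER2 knockdown array 3 stood apart for CBS (0.761, lowest at 8.22 with the next at 8.61), FOXO4 (0.689, lowest at 6.85 with the next at 7.18), IGF2R (0.667, lowest at 9.47 with the next at 9.72), KRT19 (0.645, highest at 12.29 with the next at 12.17), NDRG1 (0.645, lowest at 8.46 with the next at 8.74), NHERF1 (0.721, lowest at 11.17 with the next at 11.27) and WIPI1 (0.726, highest at 7.0 with the next at 6.61). HER2 knockdown array 4 stood apart for HMMR (0.668, lowest at 9.42 with the next at 9.52). HER2 knockdown array 5 stood apart for ALDH1A3 (0.643, highest at 6.31 with the next at 6.09). HER2 knockdown array 6 stood apart for EGF (0.636, highest at 4.67 with the next at 4.51). NHERF1 knockdown array 6 stood apart for CRIP2 (0.689, lowest at 8.15 with the next at 8.24). Control array 1 stood apart for IFITM2 (0.785, lowest at 10.15 with the next at 10.27). Control array 2 stood apart for GRB7 (0.643, lowest at 10.67 with the next at 10.76) and KRT8 (0.679, highest at 12.55 with the next at 12.40). Control array 3 stood apart for DOCK11 (0.753, lowest at 8.66 with the next at 8.91), GADD45A (0.628, lowest at 6.97 with the next at 7.07) and KRT19 (0.639, lowest at 13.64 with the next at 13.72). Control array 4 stood apart for DUSP4 (0.639, highest at 6.61 with the next at 6.40), NDRG1 (0.632, lowest at 11.02 with the next at 11.13) and PTK7 (0.685, lowest at 6.29 with the next at 6.53). Control array 5 stood apart for HERC5 (0.880, highest at 4.93 with the next at 4.34), IER3 (0.689, highest at 12.13 with the next at 12.01), IL6 (0.749, highest at 5.08 with the next at 4.54), MIEN1 (0.645, highest at 8.86 with the next at 8.67) and NCCRP1 (0.769, lowest at 9.09 with the next at 9.18). None of these genes lost its call against control when any single array was left out.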

How the results depend on the processing

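Of 4895 values of named genes recomputed under alternatives, 4885 kept direction and side of the threshold. ERBB3 turned to -0.37 with the mean of its probes, and the other changes of call were those of CDKN1B, PGAP3 and ERBB3, which lost it under some settings. The count of calls lay between 6971 (chip 1 alone) and 8512 (no filter), 8182 to 8250 with single arrays left out. Leaving out single arrays gave 4302 to 4353 higher, 3868 to 3918 lower, 1601 to 1630 at least 2-fold and 2569 to 2693 set against both other knockdowns. At least 2-fold differences fell to 742 without background correction and 1033 with an offset of 50, which by construction shrink folds of dim probes. Genes called against both other knockdowns numbered 1628 on chip 1 alone (857 higher, 771 lower) and 1899 on chip 2 alone (868 lower), with fewer arrays. Of 2352 list counts, 29 moved by over 1.5 times, most of them small counts. Shared replicate numbers did not pair the arrays. Same-numbered deviations correlated at -0.02 to 0.057, and 1 of 6 arrays matched its own number best. With the replicate block, 8391 genes were called (2735 against both other knockdowns), and the chip as a block gave 8391. Signals near the floor limit what can be seen, since changes of dim probes are compressed.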

Other observations

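Genes usually silent outside the germ line or fetal tissue differed in both directions. IGF2BP3 and IGF2BP2, RNA-binding proteins of fetal tissue, rose at least 33.5-fold and 19.6-fold in the HER2 knockdown. IGF2BP3 read 4.29, 4.32 and 4.48 in control and 9.65, 9.72 and 9.80 in the knockdown. Both rises were shared. With PMCA2 and NHERF1 targeted, IGF2BP3 read 10.25 ± 0.11 and 10.23 ± 0.03 (here 9.71 ± 0.05). IGF2BP2 read 10.00 ± 0.09 and 9.97 ± 0.08 (here 9.88 ± 0.08). The cancer-testis genes PAGE5, MAGEC2 and MAGEA1 fell at least 6.13-fold, 5.41-fold and at least 3.71-fold. Over the list 5 of 15 rose and 6 fell.

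The change also differed by chromosome. The median log2 change against control was 0.19 over 437 genes on chromosome 8, 0.15 over 478 on chromosome 10, -0.20 over 134 on chromosome 21 and -0.23 over 385 on chromosome 15, beside 0.022 over all genes. Genes at least 2-fold higher made up 11.3% of those on chromosome 4, 11.2% on chromosome 8 and 2.74% on chromosome 14, and genes at least 2-fold lower 11.4% on chromosome 20 and 2.35% on chromosome 18. Against the PMCA2 and NHERF1 knockdowns, which do not use the control arrays, the medians were -0.32 and -0.16 on chromosome 15, 0.01 and 0.14 on chromosome 8 and -0.04 and -0.25 on chromosome 20. Chromosomes were looked at after the values were seen, no test was made, and genes on a chromosome are not independent.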
